A study of Mus musculus with 23 samples.

Results

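Collagen modification and crosslinking genes were examined in mouse quadriceps muscle after corticosterone or vehicle treatment. The set held 10 genes listed by symbol in advance of this account, P4ha1, P4ha2, P4ha3, Plod1, Plod2, Serpinh1, Pcolce, Lox, Loxl1 and Loxl2. All 10 were matched by symbol to Ensembl gene IDs, of 55573 IDs in the table of counts, and 9 of them had enough counts to be tested, P4ha3 being the exception. The rule that defined the set used no measured value, although the genes were chosen with earlier results of these data known.

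RNA was sequenced from the quadriceps, the large thigh muscle, of 23 C57Bl6 mice. Corticosterone, the main glucocorticoid of mice, came from a pellet under the skin with 50 mg corticosterone and 50 mg cholesterol, and vehicle pellets held 100 mg cholesterol. Treatment lasted 14 days in mice 8 to 10 weeks of age, and tissue was collected after 5 hours without food. The groups were 6 vehicle-treated female mice, 5 corticosterone-treated female mice, 6 vehicle-treated male mice and 6 corticosterone-treated male mice, with no genetic modification named in the labels, and each mouse is named by the letter of its sex and its number. Each mouse had between 20904150 and 21984477 counts on genes. The skeletal muscle fiber markers summed to 74755 to 188882 CPM, that is, counts scaled to a common library size, in each mouse, with none of the 8 at 0 in any mouse. The sources used here do not say whether male and female samples shared a processing batch, so batch and sex cannot be told apart in comparisons between the sexes.

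Collagen chains are modified inside the cell before they are secreted and joined into fibers. Prolyl 4-hydroxylases stabilize the triple helix by hydroxylating proline, lysyl hydroxylases prepare lysine residues for sugar attachment and for crosslinks, and a chaperone holds the folded helix on its way through the endoplasmic reticulum. Outside the cell the propeptides are cut off, and lysyl oxidases oxidize lysine residues so that neighbouring molecules become covalently linked. In skeletal muscle, these proteins come mainly from fibroblasts between the fibers, although the prolyl hydroxylases are also made by other cells.

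The 10 genes lay on 8 chromosomes, in the GENCODE M21 annotation of GRCm38 (mm10), and all were annotated as protein coding. P4ha3 and Serpinh1 shared chromosome 7, at chr7:100285520-100319699 on the plus strand and chr7:99345376-99353239 on the minus strand, and Plod2 (chr9:92542223-92608428, plus strand) and Loxl1 (chr9:58287738-58313186, minus strand) shared chromosome 9. P4ha1 lay at chr10:59323296-59373304 on the plus strand, P4ha2 at chr11:54100095-54131665 on the plus strand, and Plod1 at chr4:147909753-147936767 on the minus strand. Loxl2 lay at chr14:69609068-69695834 on the plus strand, and Pcolce at chr5:137605103-137613784 on the minus strand. Of the genes called in the comparisons, Serpinh1 has the identifier ENSMUSG00000070436, Pcolce ENSMUSG00000029718, Lox ENSMUSG00000024529, Loxl1 ENSMUSG00000032334 and Loxl2 ENSMUSG00000034205. Pcolce overlapped Fbxo24 and Loxl2 held the microRNA gene Mir6950 on the same strand, so that read pairs there may not be assigned to 1 gene. Plod2, Lox, Loxl2 and Pcolce also overlapped genes on the opposite strand, which the stranded counting kept apart.

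Promoter sequences were matched in RefSeq for 6 of the 10 genes, P4ha1, P4ha2, P4ha3, Plod1, Serpinh1 and Pcolce. The 250 bases before the annotated start are shown for 2 of them, 1 that fell in males and 1 that did not pass the test in either sex, because the 2 hold the same number of each sequence searched. Capitals mark GGGCGG (the GC box) and ACGTG (the core of hypoxia response elements), found on either strand and not overlapping, in GRCm38.p6. The first is chr7:99353240-99353489 on the minus strand and the second is chr10:59323046-59323295 on the plus strand, each printed 5′ to 3′ on the strand of its gene.
Serpinh1: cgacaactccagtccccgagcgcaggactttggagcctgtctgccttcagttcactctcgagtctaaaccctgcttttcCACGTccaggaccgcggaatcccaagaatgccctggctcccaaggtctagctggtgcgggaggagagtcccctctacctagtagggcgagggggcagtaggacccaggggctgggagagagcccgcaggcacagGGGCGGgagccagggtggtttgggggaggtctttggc
P4ha1: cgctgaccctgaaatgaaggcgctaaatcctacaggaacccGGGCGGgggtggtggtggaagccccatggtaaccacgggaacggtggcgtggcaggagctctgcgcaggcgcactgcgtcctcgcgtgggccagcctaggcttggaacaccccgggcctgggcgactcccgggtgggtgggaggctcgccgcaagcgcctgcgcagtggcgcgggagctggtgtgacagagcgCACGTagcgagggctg
Each window held 1 GC box, found in 32.7% of 32851 RefSeq promoter windows of this length, and 1 hypoxia core, found in 16.6% of them. CCAAT (33.9% of all windows), GAANNTTC (the heat shock element core, 6.69%) and the palindromic consensus element of the glucocorticoid receptor (0.009%) were in neither. None of the 6 promoters held any of these last motifs, P4ha2 also held the hypoxia core, and all 6 held at least 1 GC box. These matches describe the letters of the windows only.

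In corticosterone-treated male mice, 4 of the 9 genes tested fell and none rose past the threshold, whereas in corticosterone-treated female mice 1 fell and 1 rose. Serpinh1, Pcolce, Loxl1 and Loxl2 fell in males, by 2.43-fold to 6.32-fold. Lox rose 6.45-fold in females, and Loxl2 was the gene that fell in both sexes. The threshold was an adjusted p of 0.01 in edgeR's quasi-likelihood test. Over all 13049 genes tested, 13.1% were called lower and 13.2% higher in males, and 6.0% lower and 7.4% higher in females. In males, DESeq2 called 1 of the 9 higher and limma-voom 2, and 2 had an unadjusted p under 0.05 in that direction. The median log2 fold change (log2FC) of the 9 genes was -0.16 in males and 0.04 in females, beside -0.02 and 0.04 over all genes tested. Whether fewer cells of a type or less RNA per cell lay behind a lower level cannot be told apart in RNA of whole muscle.

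**Figure D1:**
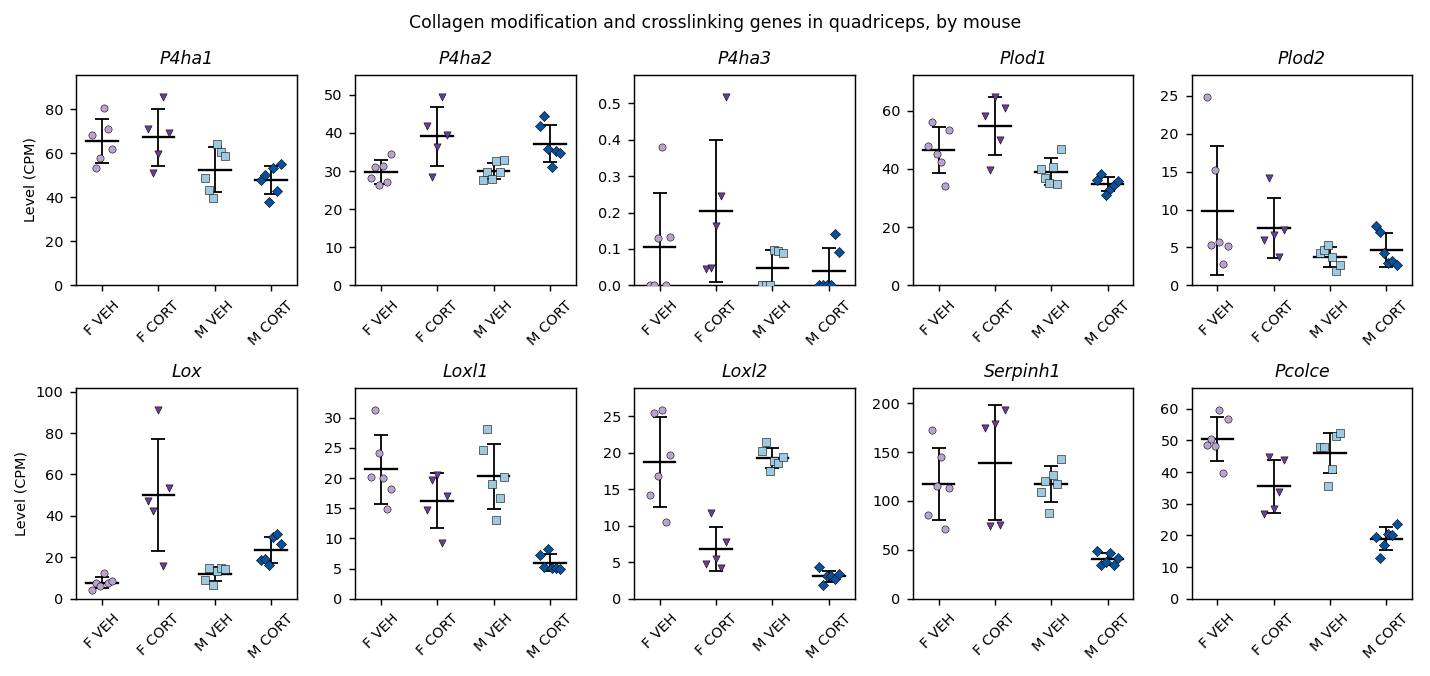
CPM of each of the 10 genes (vertical axis, 1 panel per gene) in each mouse of the 4 groups, with F and M for female and male and VEH and CORT for vehicle and corticosterone. Points are mice and lines the mean ± SD. Loxl2 lay between 1.88 and 4.31 CPM in treated males and between 17.5 and 21.5 in vehicle-treated males, and Lox lay higher in every treated female than in every vehicle-treated one.

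Beginning with the hydroxylases, P4ha1, the main catalytic subunit of prolyl 4-hydroxylase, differed little between treated and vehicle-treated mice. It had a mean of 52.6 ± 10.1 CPM (SD, n = 6) in vehicle-treated males and 47.8 ± 6.56 (n = 6) in treated males, and the ranges overlapped. In females it had 65.5 ± 9.84 CPM (n = 6) with vehicle and 67.3 ± 12.9 (n = 5) with corticosterone. Its log2FC of -0.14 in males (SE 0.14, edgeR adjusted p = 0.444) and 0.04 in females (SE 0.14, edgeR adjusted p = 0.871) stood within about 1 SE of 0.

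P4ha2, an alternative catalytic subunit, had higher mean levels after treatment in both sexes without passing the threshold. Vehicle-treated males ranged from 27.8 to 32.8 CPM (median 29.7) and treated males from 31.2 to 44.3 (median 35.6). In vehicle-treated females it ranged from 26.4 to 34.5 CPM (median 29.6), and treated females had 41.9 CPM (F2), 28.3 (F4), 36.2 (F6), 49.4 (F8) and 39.6 (F10). The groups overlapped in both sexes, in females through F4. The log2FC was 0.31 in males (SE 0.11, edgeR adjusted p = 0.0269) and 0.39 in females (SE 0.11, edgeR adjusted p = 0.0132), and without F4 the female value was 0.49 (edgeR adjusted p = 0.001).

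P4ha3, the third catalytic subunit, was counted 0 to 13 times per mouse, which is at most 0.517 CPM, and was not tested. At this depth 3 counts, taken as the limit of detection, correspond to at most 0.166 CPM, and 19 of the 23 mice had 3 counts or fewer. Among the alpha subunits per length of exon, P4ha1 made up 76.6% ± 3.26 (SD, n = 6) of the summed CPM per kb in vehicle-treated females and 72.1% ± 0.698 (n = 5) in treated females. In males it made up 72.2% ± 3.04 (n = 6) with vehicle and 65.9% ± 4.38 (n = 6) with corticosterone. These shares overlapped between treated and vehicle-treated mice of each sex.

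Among the lysyl hydroxylases, Plod1, which acts on lysines of the collagen helix, was not called in either sex. Its log2FC was -0.16 in males (SE 0.12, edgeR adjusted p = 0.278) and 0.23 in females (SE 0.12, edgeR adjusted p = 0.159). Plod2, which acts on lysines at the ends of the collagen chain, had the largest SE of the 9 genes in both sexes. Vehicle-treated females ranged from 2.83 to 24.8 CPM (median 5.50), with F1 at 24.8 and F5 at 15.2 and no other mouse of that group above 5.68. Treated females had 5.96 CPM (F2), 14.2 (F4), 6.59 (F6), 3.79 (F8) and 7.35 (F10), and the log2FC of -0.38 (SE 0.46, edgeR adjusted p = 0.580) became 0.14 without F1. In males Plod2 ranged from 1.93 to 5.27 CPM with vehicle and from 2.64 to 7.87 with corticosterone, a log2FC of 0.32 (SE 0.45, edgeR adjusted p = 0.602).

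Serpinh1 encodes the collagen chaperone of the endoplasmic reticulum and was the most abundant of the genes per length in every group. In vehicle-treated males it ranged from 87.2 to 143 CPM (median 118) and in treated males from 34.2 to 48.5 (median 39.4), so that the groups did not overlap. Its mean fell from 117 ± 18.5 CPM (SD, n = 6) to 40.4 ± 6.19 (n = 6), a log2FC of -1.53 (SE 0.24, edgeR adjusted p = 3.24e-05). In vehicle-treated females it ranged from 71.4 to 172 CPM (median 114). Treated females had 174 CPM (F2), 74.9 (F4), 179 (F6), 75.7 (F8) and 193 (F10), that is, 3 mice above every vehicle-treated female and 2 near the lowest of them. The female log2FC was 0.25 (SE 0.24, edgeR adjusted p = 0.475).

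Pcolce encodes a secreted protein that enhances the removal of the procollagen C-propeptide. It fell in males, from a range of 35.8 to 52.2 CPM (median 48.0) to a range of 12.8 to 23.6 (median 19.9), without overlap, with a log2FC of -1.28 (SE 0.15, edgeR adjusted p = 1.21e-06). In vehicle-treated females it ranged from 39.8 to 59.5 CPM (median 49.6). Treated females had 26.9 CPM (F2), 44.8 (F4), 28.3 (F6), 33.8 (F8) and 43.8 (F10), with F4 and F10 inside the vehicle range. The female log2FC was -0.51 (SE 0.15, edgeR adjusted p = 0.0173), and it was -0.60 without F4 (edgeR adjusted p = 0.00648).

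Lox, the founding lysyl oxidase, which crosslinks collagen and elastin, had higher levels after treatment in both sexes. It lay at chr18:52516067-52529867 on the minus strand. In vehicle-treated females it ranged from 4.44 to 12.2 CPM (median 7.55). Treated females had 47.2 CPM (F2), 42.6 (F4), 90.9 (F6), 15.99 (F8) and 53.3 (F10), all above the vehicle range, with F8 closest to it and F6 highest. The mean went from 7.75 ± 2.59 CPM (SD, n = 6) to 49.999 ± 26.9 (n = 5), a log2FC of 2.69 (SE 0.33, edgeR adjusted p = 1.14e-05). Vehicle-treated males ranged from 6.50 to 14.9 CPM (median 13.7) and treated males from 16.1 to 31.0 (median 22.7), again without overlap. The male log2FC was 0.96 (SE 0.30), and its edgeR adjusted p of 0.0149 missed the threshold. It passed with DESeq2 (adjusted p = 0.00415), with limma-voom (adjusted p = 0.00839) and in edgeR without F6 (adjusted p = 0.00703) or F8 (adjusted p = 0.00361).

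Loxl1, a lysyl oxidase known for its part in elastic fibers, fell in males. Vehicle-treated males ranged from 13.1 to 28.1 CPM (median 19.7) and treated males from 5.001 to 8.20 (median 5.16), a log2FC of -1.77 (SE 0.22, edgeR adjusted p = 2.13e-06). In vehicle-treated females it ranged from 14.9 to 31.2 CPM (median 20.1). Treated females had 14.7 CPM (F2), 19.7 (F4), 20.5 (F6), 9.20 (F8) and 17.1 (F10), and the groups overlapped. The female log2FC was -0.40 (SE 0.22, edgeR adjusted p = 0.178).

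Loxl2, a lysyl oxidase known for crosslinking basement membrane collagen, had the lowest log2FC of the 9 genes in both sexes. In males it fell from a range of 17.5 to 21.5 CPM (median 19.2) to a range of 1.88 to 4.31 (median 3.09), a log2FC of -2.66 (SE 0.25, edgeR adjusted p = 8.67e-08). In vehicle-treated females it ranged from 10.5 to 25.8 CPM (median 18.2). Treated females had 4.82 CPM (F2), 11.7 (F4), 5.50 (F6), 4.18 (F8) and 7.75 (F10), and F4 alone lay inside the vehicle range. The mean fell from 18.8 ± 6.16 CPM (SD, n = 6) to 6.79 ± 3.06 (n = 5), a log2FC of -1.47 (SE 0.25, edgeR adjusted p = 0.000285). With the females fitted alone the female log2FC was -1.48 with an adjusted p of 0.0104 in edgeR.

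In males, 5 of the 9 genes had treated and vehicle-treated mice that did not overlap, Lox upwards and Serpinh1, Pcolce, Loxl1 and Loxl2 downwards, beside 21.9% of all genes tested in either direction. In females Lox was the single gene without overlap, beside 7.72% of all genes tested.

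**Figure D2:**
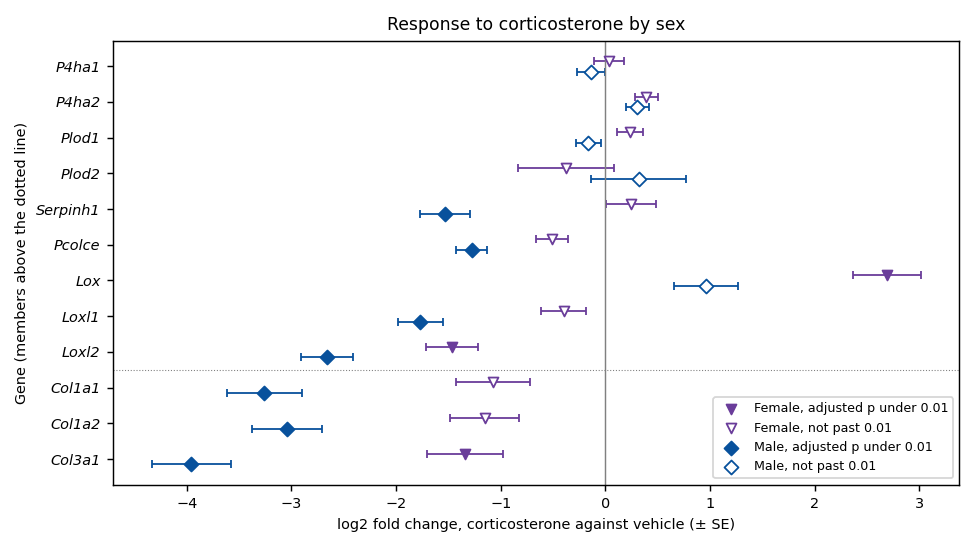
Log2FC of corticosterone-treated against vehicle-treated mice (horizontal axis) with its SE for the 9 genes tested and 3 collagen genes, in females (triangles) and males (diamonds). Filled symbols passed the edgeR adjusted p of 0.01. Lox is the gene furthest to the right in both sexes, and Serpinh1 stands at -1.53 in males and 0.25 in females.

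The make-up of the lysyl oxidase family differed between treated and vehicle-treated mice of both sexes when the 5 family members, including Loxl3 and Loxl4, were summed as CPM per kb of exon. Lox held 12.8% ± 4.06 (SD, n = 6) of the sum in vehicle-treated females and 54.7% ± 11.2 (n = 5) in treated females. In males it held 18.8% ± 5.30 (n = 6) with vehicle and 59.1% ± 8.07 (n = 6) with corticosterone. The highest vehicle-treated mouse was at 17.97% in females and 24.3% in males, below the lowest treated mouse at 40.3% and 46.7%. Loxl2 held 26.4% in vehicle-treated and 7.44% in treated females, and 26.9% and 6.98% in males, and Loxl1 went from 50.6% to 28.3% in females and from 45.4% to 22.8% in males. The summed level itself was 12.9 ± 3.05 CPM per kb in vehicle-treated and 18.2 ± 6.99 in treated females, with overlap, and 13.5 ± 2.03 in vehicle-treated and 8.23 ± 1.35 in treated males, without overlap. Lox thus became the leading family member per length in both sexes, while the level of the family stood lower in treated males.

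**Figure D3:**
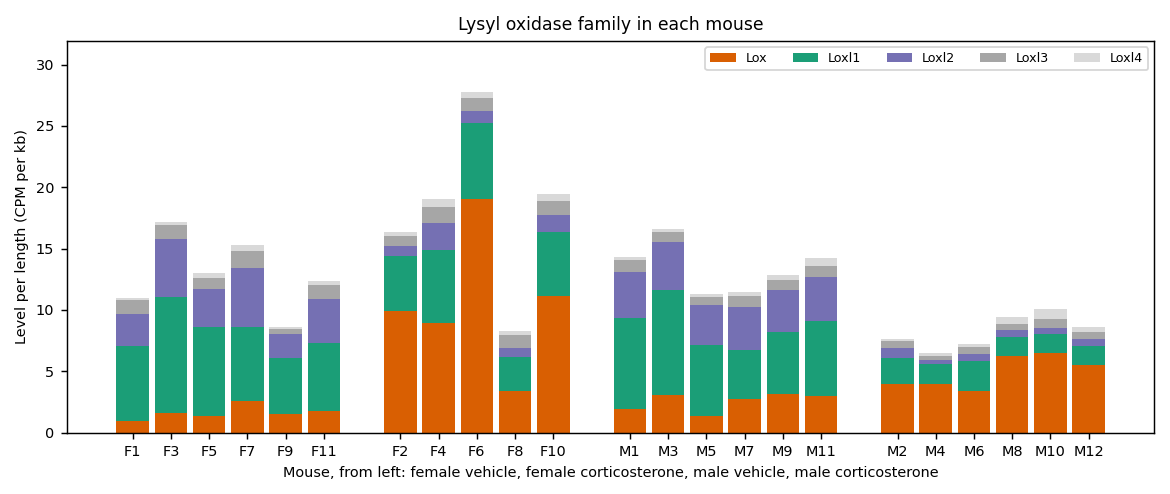
Stacked levels of the 5 lysyl oxidases in each mouse (vertical axis, CPM per kb of exon), by group. Lox holds 40.3% to 68.5% of the bar in treated females and 46.7% to 66.5% in treated males, against 8.45% to 24.3% in vehicle-treated mice.

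The order of levels per length showed the same shift. In vehicle-treated males the means in CPM per kb were 47.9 for Serpinh1, 12.8 for P4ha1, 12.05 for Pcolce, 6.16 for Loxl1, 5.77 for Plod1, 4.82 for P4ha2, 3.58 for Loxl2, 2.52 for Lox and 0.694 for Plod2. P4ha1 and Pcolce, and likewise Loxl1 and Plod1, were neighbours that differed by less than their spread. In treated males Serpinh1 (16.6 CPM per kb) still stood first and P4ha1 (11.6) next, followed by P4ha2 (5.96). Plod1 (5.15), Pcolce (4.96) and Lox (4.92) came after it in treated males and differed among themselves by less than their spread, and Plod2 (0.868) and Loxl2 (0.566) differed by less than the SD of Plod2. In treated females Serpinh1 had 57.0, P4ha1 16.4 and Lox 10.5 CPM per kb, where Lox had 1.62 in vehicle-treated females.

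The responses of the sexes were then compared by the interaction term, the male log2FC minus the female log2FC. Serpinh1 was the 1 gene of 9 called, at -1.78 (SE 0.33, edgeR adjusted p = 0.00781), beside 0.69% of all genes tested. Loxl1 had an interaction of -1.37 (SE 0.30, edgeR adjusted p = 0.0137), Lox of -1.73 (SE 0.44, edgeR adjusted p = 0.0202), Pcolce of -0.77 (SE 0.21, edgeR adjusted p = 0.0257) and Loxl2 of -1.19 (SE 0.34, edgeR adjusted p = 0.0298), none of which passed. The hydroxylases had adjusted p-values of 0.111 to 0.728 in edgeR. The Serpinh1 call stood close to the threshold. Of the 23 fits that left out 1 mouse each, it was kept without F3, F4, F5, F7, F8, M2, M5 or M12 and lost in the other 15 (edgeR adjusted p = 0.0106 to 0.0177), with log2FC values between -1.94 and -1.61 over all of these fits. The fits that lost this call had 0.00768% to 0.379% of all genes tested called for the interaction. Those that kept it had 0.292% to 6.88%. DESeq2 called 5 of the 9 genes, beside 6.87% of all genes tested, and limma-voom 3, beside 5.31%. In edgeR, 2 genes were called without F3 (Serpinh1 and Loxl1) and 4 without F8 (these and Lox and Loxl2), beside 2.32% and 6.88% of all genes tested. The median interaction of the 9 genes was -0.77, beside -0.05 over all genes tested.

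**Figure D4:**
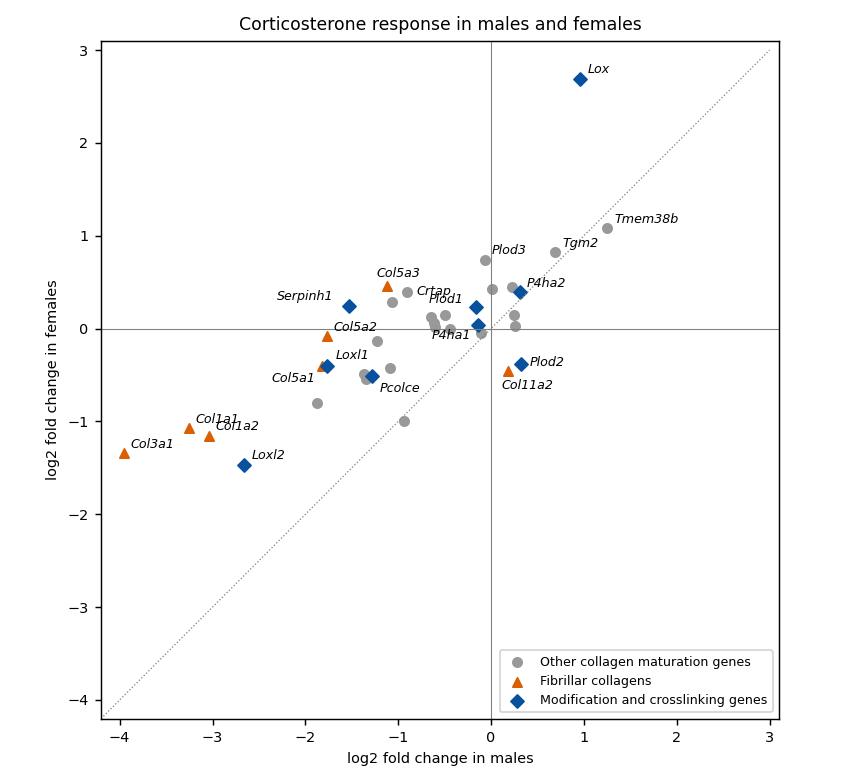
Log2FC in males (horizontal axis) against log2FC in females (vertical axis) for the 9 genes (diamonds), 7 fibrillar collagen genes (triangles) and 21 other collagen maturation genes (circles), with the line of equal response. Serpinh1 lies at -1.53 and 0.25, Lox at 0.96 and 2.69, and the collagens Col1a1, Col1a2 and Col3a1 lie furthest to the left.

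Among vehicle-treated mice, none of the 9 genes differed between the sexes in edgeR, beside 0.958% of all genes tested, and 3 had an unadjusted p under 0.05. DESeq2 and limma-voom also called 0. The lowest of these p-values was that of Plod2 (log2FC of males minus females -1.40, edgeR adjusted p = 0.122) and it was -0.87 without F1. Among corticosterone-treated mice, 7 of the 9 genes were called, beside 23.3% of all genes tested in either direction, and all 7 were lower in males. The log2FC was -1.78 for Serpinh1 (SE 0.24, edgeR adjusted p = 4.60e-05), -1.45 for Loxl1 and -1.15 for Loxl2, -1.09 for Lox, -0.90 for Pcolce, -0.65 for Plod1 and -0.49 for P4ha1. The calls of Lox (edgeR adjusted p = 0.00885) and P4ha1 (edgeR adjusted p = 0.0097) stood at the threshold. The call of Loxl2 in this comparison was lost with limma-voom (adjusted p = 0.0118) and with the treated mice fitted alone (edgeR adjusted p = 0.0115). With 1 mouse left out, Lox ranged from -1.31 to -0.74 and kept its call only without F1, F3, F4, F7, F8, M1, M5 or M10. P4ha1 ranged from -0.58 to -0.39 and kept its call only without F3, F4, F7, M3, M5, M7 or M12. Markers of some other cell types were also called lower in treated males than in treated females. These were 6 of 8 macrophage, 5 of 5 Schwann cell, 7 of 10 fibroblast, 1 of 7 adipocyte and 1 of 6 endothelial markers, beside 1828 of 13049 genes tested. The adipocyte and endothelial counts stood near that share. No tenocyte, hepatocyte or muscle fiber marker was called. Of 6 smooth muscle markers 1 was called higher in males and 0 lower, while 4 had a log2FC below 0. The smooth muscle sum was 5987 to 8205 CPM in treated males and 2749 to 4929 in treated females. Macrophage markers summed to 72.7 to 108 CPM in treated males and 94.4 to 299 in treated females, Schwann cell markers to 43.0 to 88.4 and 84.1 to 280, and endothelial markers to 221 to 323 and 310 to 475. No marker of these 3 lists was at 0 in a mouse, and their part in the result was not tested.

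Treated females differed among themselves in the RNA of adipocyte markers, and these values stood beside the levels of several genes. The 7 adipocyte markers summed to 3633 CPM in F2, 6899 in F6 and 3272 in F10, above every vehicle-treated mouse (219 to 2595), and to 1091 in F4 and 270 in F8. In treated males the sum was 289 to 923 CPM, and none of the 7 markers was at 0 in a treated mouse, while Lep was at 0 in at least 1 vehicle-treated female. F2, F6 and F10 were also the mice with the highest Serpinh1 and the highest Lox, with Lox at 47.2, 90.9 and 53.3 CPM. Without these 3 mice, F4 and F8 were the only treated females, and the female log2FC of Serpinh1 was -0.65 (edgeR adjusted p = 0.167). The Serpinh1 interaction was then -0.88 (edgeR adjusted p = 0.150), and the log2FC of Loxl2 in females was -1.25 (edgeR adjusted p = 0.0522). In that fit, calls over all genes tested went from 13.4% to 1.0% in females and from 0.69% to 0.0466% for the interaction. Lox in females had a log2FC of 1.91 without the 3 mice (edgeR adjusted p = 0.0042) and remained called in every alternative fit. F8, with the lowest adipocyte sum of the treated females, also had their lowest Lox, 15.99 CPM, above the vehicle-treated female maximum of 12.2. Between treated males and females, Lox had a log2FC of -1.09 with all mice and -0.30 without the 3 mice (edgeR adjusted p = 0.645). Of the 7 genes lower in treated males than in treated females, 1 (Pcolce) was called without the 3 mice, while the share of all genes tested that was called in this comparison went from 23.3% to 1.65%. With the adipocyte score as a covariate the Serpinh1 interaction was -1.48 (edgeR adjusted p = 0.0234), in a fit that called 0.00766% of all genes tested for the interaction. The part of adipocyte RNA in these results beyond these fits was not tested.

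Liver transcripts were also high in some mice. Alb, the gene of serum albumin, was above 500 CPM in F6, F10, M8, M9 and M12, and without these 5 mice the female log2FC of Loxl2 was -1.46 (edgeR adjusted p = 0.0104) and the Serpinh1 interaction -1.45 (edgeR adjusted p = 0.0949). Calls over all genes tested were then 3.61% in females and 0.0237% for the interaction. The 4 genes that fell in males were called in each of these fits, and the part of liver RNA in the other results was not tested.

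**Figure D5:**
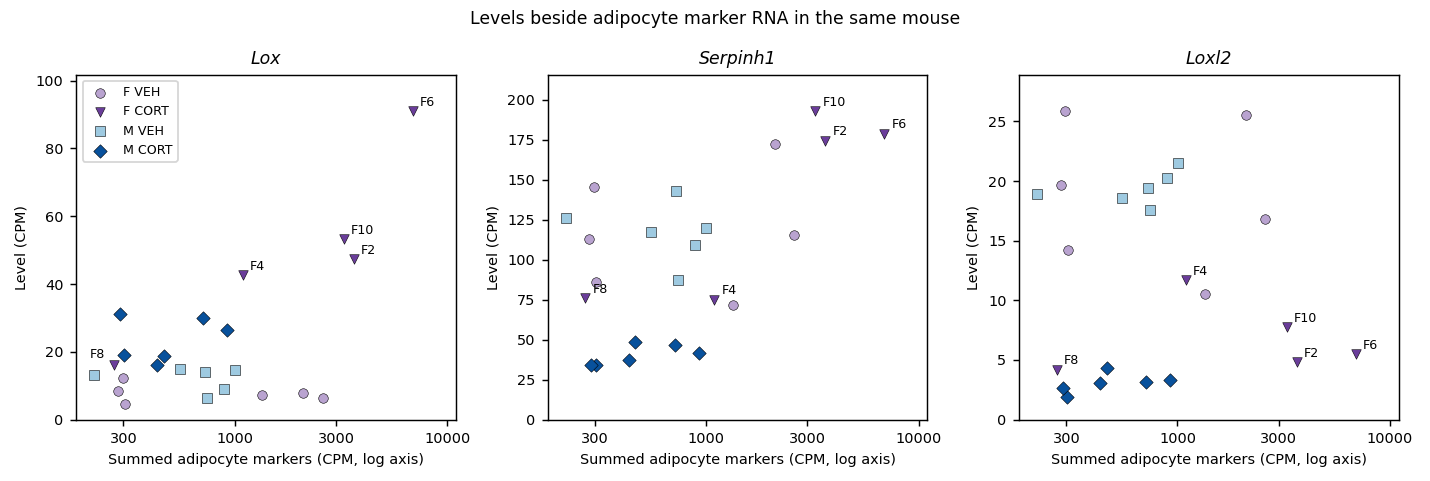
Lox, Serpinh1 and Loxl2 (vertical axes, CPM) against the summed CPM of 7 adipocyte markers (horizontal log axis) in each mouse, with treated females named. F2, F6 and F10 lie at 3272 to 6899 CPM on the horizontal axis and have Serpinh1 at 174 to 193 CPM, while F4 and F8 lie at 74.9 and 75.7.

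Fibroblasts make most fibrillar collagen. Of 10 fibroblast markers, 6 fell in males and 3 in females, beside 13.1% and 6.0% of all genes tested. Those that fell in males included Pi16 (-2.68), Lum (-1.91) and Clec3b (-1.88) on the log2 scale. The median log2FC of the 10 was -1.23 in males and 0.02 in females, and in females 6 lay above 0. The summed level of the 10 markers was 1433 to 2237 CPM in vehicle-treated and 1017 to 1567 in treated males. In females it was 1482 to 2157 with vehicle and 1396 to 2790 with corticosterone, with no marker at 0 in any mouse. Of 6 markers of tenocytes, the cells of tendon, 5 had a log2FC below 0 in males without passing the test, with a median of -1.47 over the 6. In males 1 rose (Scx, 1.51 on the log2 scale), beside 13.2% of all genes tested. In females 0 of the 6 passed in edgeR, 0 had an unadjusted p under 0.05, and the median was 0.01. Their sum ranged from 23.3 to 441 CPM among vehicle-treated and from 24.4 to 290 among treated mice. The part of fibroblast and tenocyte RNA in the falls was not tested.

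Col1a1, Col1a2 and Col3a1, which encode the main collagens these proteins act on, had lower log2FC values in males than any of the 9 genes. Of 7 fibrillar collagen genes tested, 5 fell in males and 1 in females, beside 13.1% and 6.0% of all genes tested. Col1a1 went from 142 ± 25.6 CPM (SD, n = 6) to 14.9 ± 3.90 (n = 6) in males, a log2FC of -3.26 (SE 0.36, edgeR adjusted p = 7.3e-07). In females Col1a1 had a log2FC of -1.08 (SE 0.35, edgeR adjusted p = 0.028). Col1a2 had log2FC values of -3.04 in males and -1.15 in females, and Col3a1 of -3.96 and -1.34, the female Col3a1 value being the 1 called. Relative to Col1a1, the mean log2 ratio of Lox in CPM went from -3.60 ± 0.34 (SD, n = 6) to 0.66 ± 0.66 (n = 6) in males and from -4.35 ± 0.61 (n = 6) to -0.77 ± 0.61 (n = 5) in females, with no overlap in either sex. That of Serpinh1 went from -0.28 ± 0.07 to 1.47 ± 0.27 in males, without overlap, and from -0.43 ± 0.53 to 0.78 ± 0.95 in females, with overlap. The ratio of P4ha1, itself not called, went from -1.44 to 1.71 in males, and that of Pcolce from -1.62 to 0.37, both without overlap. With Col1a1 so much lower in treated males, ratios to it rise also for genes that change little. Lack of overlap in males therefore does not set Lox or Serpinh1 apart.

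Of 24 other genes of collagen maturation, 21 were tested. In males 11 fell and 2 rose, beside 13.1% and 13.2% of all genes tested. In females 1 fell and 3 rose, beside 6.0% and 7.4%. The rises in males and the fall in females stood near those shares. The median log2FC was -0.61 in males and 0.06 in females. Those that fell in males included the procollagen proteinases Bmp1 (-1.37), Adamts2 (-1.06) and Adamts14 (-1.88), the Pcolce paralog Pcolce2 (-1.23), the prolyl isomerases Fkbp10 (-1.35), Fkbp14 (-0.61) and Ppib (-0.50), the prolyl 3-hydroxylase family members P3h1 (-0.44) and P3h3 (-1.08), the partner protein Crtap (-0.90) and the galactosyltransferase Colgalt2 (-0.93). Colgalt2 was the 1 that fell in females, by 0.99 on the log2 scale. Tgm2, a transglutaminase that crosslinks proteins by another chemistry, rose in males (0.69) and females (0.82), and so did Tmem38b, an ion channel of the endoplasmic reticulum (1.25 and 1.08). Plod3, a lysyl hydroxylase that also transfers sugars, rose in females (0.74) and had a log2FC of -0.07 in males. For Plod3, treated females had 9.15 CPM per kb (F2), 6.01 (F4), 13.2 (F6), 5.39 (F8) and 10.1 (F10). F4 and F8 lay within the vehicle-treated female range of 4.44 to 6.06, while F2, F6 and F10, rich in adipocyte markers, lay above it. The interaction was called for Crtap at -1.30 (SE 0.26, edgeR adjusted p = 0.0095).

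Some P4ha and Plod genes and Lox are known to respond to low oxygen, and a list of 12 hypoxia-response genes was read beside them. In males 3 rose (Ddit4 by 3.37, Car9 by 2.13 and Egln3 by 1.88 on the log2 scale). The 3 that fell in males had log2FC values of -1.10 (Ankrd37), -0.97 (Vegfa) and -0.57 (Higd1a). In females 1 rose (Ddit4 by 2.24) and 0 fell. Over all genes tested, 13.2% were called higher and 13.1% lower in males, and 7.4% higher and 6.0% lower in females. The female count of this list stood near that share. Its medians were -0.05 in males and 0.02 in females. Prolyl and lysyl hydroxylases need iron and ascorbate, and of 4 transport genes tested 2 fell in both sexes, the iron transporter Slc11a2 (-0.56 in males and -0.46 in females) and the transferrin receptor Tfrc (-1.48 and -1.32). Slc40a1 (0.94 and 0.73) and Slc23a2 (-0.30 and 0.06) were not called in either sex.

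Genes that varied between mice of the same group along with these genes were ranked by Pearson's r of their deviations from the group means over the 23 mice, as a description across mice that share library and depth differences. The mean of the 9 genes was followed most closely by Efemp2 (r = 0.83, Spearman's rho = 0.80), whose product helps assemble elastic fibers, and then by Sulf1 (0.80), Ebf2 (0.80), Dsel (0.80) and C1qtnf6 (0.79). Taken singly, Loxl2 was followed most closely by Col1a2 (r = 0.87), Loxl1 by Dbn1 (0.91), Lox by Prelp (0.86), Serpinh1 by Cyb5r3 (0.90) and Pcolce by Bicc1 (0.81). The closest genes were Chordc1 for P4ha1 (r = 0.87), Asb15 for P4ha2 (0.84), Tubb2a for Plod1 (0.86) and Slc4a4 for Plod2 (0.79).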

How the data were processed

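RNA of quadriceps muscle of 23 mice was sequenced as stranded paired-end libraries. Per the submitters' processing notes, the authors checked reads with FastQC and MultiQC, aligned them to mm10 with STAR 2.7.3a and counted read pairs per gene with HTSeq 0.12.4, and they deposited these counts without normalization. The 5 summary entries of each mouse (10.7% to 15.3% of read pairs) were left out. GENCODE M21 on GRCm38 matched 55480 of 55573 gene IDs.

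Tested were the 13049 genes that exceeded 20 normalized counts in 4 or more mice of some group. The main test was the quasi-likelihood test of edgeR 4.0.16 in R 4.3.3 with TMM normalization (factors of 0.832 to 1.21), a mean for each of the 4 groups, and Benjamini-Hochberg adjustment over all genes tested with a threshold of 0.01. CPM were TMM-scaled, and exon lengths served for CPM per kb. A prior count of 1 entered log2 CPM for likeness and scores. The scripts were tested on simulated data. Replicates differed beyond sampling noise in every pair (chi-square per degree of freedom of at least 14.4). Intervals and limits from counts cover counting error only.

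Alternatives were DESeq2 1.42.0, limma-voom (limma 3.58.1) with sample quality weights, the median of ratios, edgeR's filterByExpr, no filter beyond 1 count, the groups of a comparison alone, a block on the mouse numbers, and leaving out each of the 23 mice in turn. Leaving out 3 treated females rich in adipocyte markers, leaving out 5 mice over 500 CPM of Alb, and an adipocyte score as a covariate were chosen after seeing the data.

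The members and the lists were chosen with earlier results of these data known. Named were all members, the other maturation genes past the threshold in males, females or the interaction, and 3 collagens. From the hypoxia list the genes past the threshold in males or females were named, and from the fibroblast and tenocyte lists up to 3 examples of largest fold. The most similar gene of each member and the 5 most similar of their mean were also named. The iron and ascorbate transport genes and the adipocyte and Alb values were named after their values were seen. The marker lists for macrophages (0 of 8 called in edgeR in either sex, 3 at an unadjusted p under 0.05 in males and 5 in females), endothelium (0 of 6, with 3 and 1), Schwann cells (0 of 5, with 0 and 2), hepatocytes (0 of 6, with 0 and 1), adipocytes (0 of 7 in males and 1 higher in females), smooth muscle (1 higher and 1 lower of 6 in each sex) and muscle fibers (1 lower of 8 in each sex) were also read.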

Additional observations from a re-analysis of the deposited data

Results flagged for a closer look

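Serpinh1 was picked out because the response of males and that of females differed by the test of the difference itself, with an interaction of -1.78 on the log2 scale (SE 0.33, edgeR adjusted p = 0.00781). All 6 treated males lay below all 6 vehicle-treated males, whereas 3 treated females lay above every vehicle-treated female and 2 lay near the lowest of them. The difference was -0.88 without the 3 treated females rich in adipocyte markers, where it was no longer called (edgeR adjusted p = 0.150). Interaction calls over all genes tested went from 0.69% to 0.0466% in that fit. No mouse stood apart from the rest of its group by Dixon's 95% critical value in any of the 36 combinations of gene and group examined.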

How the results depend on the processing

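The count of 4 genes that fell in males was found in all 32 alternative fits, as were the rise of Lox in females (log2FC 1.91 to 2.92) and the falls of Loxl1 (-1.88 to -1.66), Loxl2 (-2.78 to -2.55), Serpinh1 (-1.61 to -1.47) and Pcolce (-1.35 to -1.19) in males. Calls higher in males went from 0 to 1 with DESeq2, with the sexes fitted alone and without the adipocyte-rich mice, to 2 with limma-voom, and to between 0 and 1 with 1 mouse left out (1 without F6 or F8). In females, calls higher went from 1 to 2 with DESeq2, limma-voom and the adipocyte score as a covariate, and calls lower from 1 to 2 with DESeq2 and limma-voom and to 0 with the sexes alone, without the adipocyte-rich mice and without the mice high in Alb. Both counts were between 1 and 2 with 1 mouse left out (2 without F4). Female calls over all genes tested, in either direction, were 13.4% in the main fit. The share was 4.28% with the sexes alone, 1.0% without the adipocyte-rich mice and 3.61% without the mice high in Alb. The interaction called 1 gene, but 5 with DESeq2, 3 with limma-voom and 0 with no filter. It called 0 without the adipocyte-rich mice, 0 without the mice high in Alb and 0 with the adipocyte score as a covariate. With 1 mouse left out it called between 0 and 4. Over all genes tested, interaction calls were 0.69% in the main fit, 6.87% with DESeq2 and 5.31% with limma-voom. The share was 0.0313% with no filter, 0.0466% without the adipocyte-rich mice, 0.0237% without the mice high in Alb and 0.00766% with the covariate. Calls lower in treated males than in treated females went from 7 to 4 with these groups alone, to 1 without the adipocyte-rich mice and to 2 without the mice high in Alb, while calls over all genes tested went from 23.3% to 10.6%, 1.65% and 2.32%. Smaller changes came in other fits. Lox and P4ha1 each lost this call in 22 of 33 alternative fits and Loxl2 in 5, while Pcolce kept it in all 33. The cause of these changes was not tested, except that alternatives that leave out mice use fewer samples.

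Vehicle-treated mice had odd numbers and treated mice even numbers in both sexes, so that a number could pair mice only across the sexes. Deviations of same-numbered mice correlated above 0.1 in 7 of 11 pairs, with r of 0.08 to 0.48 in vehicle pairs and -0.38 to 0.24 in treated pairs. Mice of different numbers were not compared in this way, so these values cannot decide whether the numbers pair mice. The main fit used no pairing. With a replicate block the interaction called 0 of the 9 genes (Serpinh1 -1.73, edgeR adjusted p = 0.0149), beside 0.743% of all genes tested. The calls of Lox and Loxl2 between treated males and females were also lost (-0.995 and -1.10, edgeR adjusted p = 0.0466 and 0.0167). The block ended no other call.

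A few small differences that were not called changed sign. In females Serpinh1 was -0.65 without the adipocyte-rich mice, -0.13 without the mice high in Alb and -0.089 with the covariate, Plod1 was -0.062 without the adipocyte-rich mice, and P4ha1 was -0.0004 with no filter and -0.061 to 0.12 with 1 mouse left out. With 1 mouse left out, Plod2 in females ranged from -0.73 to 0.14, the P4ha2 interaction from -0.18 to 0.012, and P4ha2 between treated males and females from -0.17 to 0.025, the last being 0.006 without the mice high in Alb. At this depth, P4ha3 could not be tested.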
